A study of Mus musculus with 20 samples.

Results

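The genes of cholesterol and fatty acid synthesis were followed in the abdominal skin of mice whose keratinocytes lacked Zfp36 and of their littermates, with and without imiquimod. The set of 33 genes was chosen by name as the SREBP-driven part of lipid synthesis. A member counted as measured where at least 1 probe set of the array carried its symbol and no other, and the brightest such probe set over the 20 arrays stood for the gene. On this rule 30 of the 33 genes were measured, among 22180 genes in all. Idi1 and Scd2 had probe sets with several symbols only, and Acat2 was not analysed here.

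The 20 arrays came from 20 mice, 5 in each of 4 groups. The controls were labelled zfp36 fl/fl and the knockouts zfp36 fl/fl K14 cre, so the floxed Zfp36 alleles were shared by all 4 groups and the Cre, driven by the keratin 14 promoter of basal keratinocytes, was carried by the knockouts alone. Imiquimod, a Toll-like receptor agonist used on mouse skin to provoke psoriasis-like inflammation, was applied to the skin on 5 consecutive days, and the tissue was taken 4 h after the last application. What the mock mice received, the strain, the age and the sex were not given in the sources used here. Each sample was whole skin, so that epidermis, sebaceous glands, hair follicles, dermal fat and muscle all contributed RNA, and for every value below fewer cells of a type and less RNA per cell cannot be told apart.

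Cholesterol is built from acetyl-CoA through mevalonate to squalene, which is closed into lanosterol and then trimmed and reduced to cholesterol. The genes of this route are switched on by SREBP-2, and those of fatty acid synthesis mainly by SREBP-1, a pair of transcription factors held in the endoplasmic reticulum by INSIG proteins when sterols are plentiful and escorted to the Golgi by SCAP when they are not. In skin, keratinocytes make cholesterol, fatty acids and ceramides for the barrier of the stratum corneum, and sebocytes make the lipids of sebum.

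Promoter windows of 300 bases, from 250 bases before to 50 after a gene's start, were taken from RefSeq on the build GRCm38.p6 and were found for 26 of the 30 measured members (36 windows). Sequences of 4 of them are printed to show where exact spellings of the route's textbook motifs lie in them. Hmgcs1 has a sterol response element, Cyp51 and Hsd17b7 stand for the later sterol steps, and Insig1 codes for the brake on SREBP. Each is written 5′ to 3′ on the strand of its gene, and the capitals mark matches on either strand to TCACNCCAC (a sterol response element), CCAAT (the box bound by NF-Y, which reads ATTGG on the other strand) and CACGTG (an E-box). The windows lie at chr13:119690101-119690400 on the plus strand, chr5:4104648-4104947 on the minus strand, chr1:169969156-169969455 on the minus strand and chr5:28071162-28071461 on the plus strand.
Hmgcs1: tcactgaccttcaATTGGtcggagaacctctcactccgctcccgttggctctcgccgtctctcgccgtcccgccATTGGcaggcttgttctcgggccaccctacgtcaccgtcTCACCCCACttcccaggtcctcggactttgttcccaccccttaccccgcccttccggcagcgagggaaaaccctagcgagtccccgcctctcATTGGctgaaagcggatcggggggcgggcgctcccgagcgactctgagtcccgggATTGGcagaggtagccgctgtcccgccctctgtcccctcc
Cyp51: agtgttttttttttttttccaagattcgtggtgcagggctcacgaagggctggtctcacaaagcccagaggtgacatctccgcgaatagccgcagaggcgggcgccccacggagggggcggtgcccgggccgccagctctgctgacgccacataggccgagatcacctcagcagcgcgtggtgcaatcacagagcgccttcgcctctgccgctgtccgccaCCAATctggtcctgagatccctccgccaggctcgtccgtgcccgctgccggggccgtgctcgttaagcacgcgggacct
Hsd17b7: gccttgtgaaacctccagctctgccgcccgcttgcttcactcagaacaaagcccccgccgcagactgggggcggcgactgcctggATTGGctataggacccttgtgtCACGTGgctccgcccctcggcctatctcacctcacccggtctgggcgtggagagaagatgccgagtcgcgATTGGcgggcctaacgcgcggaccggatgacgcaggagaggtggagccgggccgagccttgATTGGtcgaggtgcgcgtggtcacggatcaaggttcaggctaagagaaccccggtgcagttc
Insig1: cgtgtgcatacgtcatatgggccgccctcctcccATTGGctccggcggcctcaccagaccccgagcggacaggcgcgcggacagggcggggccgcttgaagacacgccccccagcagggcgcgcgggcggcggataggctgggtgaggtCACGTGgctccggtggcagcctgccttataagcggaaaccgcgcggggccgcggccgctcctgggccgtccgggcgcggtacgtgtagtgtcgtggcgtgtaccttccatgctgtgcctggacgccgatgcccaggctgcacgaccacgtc

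The spelling TCACNCCAC of the sterol response element was found in 1 of 36 member windows, that of Hmgcs1, where it begins 137 bases before the start, against 1.24% of all 32851 windows of the same length. Other spellings of the element were not searched, so a window without a match may still hold one. The CCAAT box was in 63.89% of member windows and 37.41% of all windows, and each of the 13 sterol enzymes with a window had it. GGGCGG, the box bound by Sp1 and not capitalised above, was in 72.22% of member windows and 35.66% of all. The E-box was in 19.44% of member windows and 7.15% of all, in the windows of Dhcr7, Elovl5, Hsd17b7, Insig1, Sc5d and Scap. A match describes letters and not a bound site, both strands were searched for every motif, and member windows held 1 overlap between motifs, in Elovl1. The windows of Insig1 and Hsd17b7 both hold the E-box and the CCAAT box, as do those of Elovl5 and Sc5d.

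Array medians ran from 4.94 to 5.04 on the log2 scale, and the arrays of a group correlated at 0.953 to 0.988, both over all 41345 probe sets. Zfp36, which codes for tristetraprolin, an RNA-binding protein that speeds the decay of cytokine mRNAs, was 4.08-fold lower in knockouts than in controls after mock treatment and 3.03-fold lower under imiquimod, with no overlap in either (exact two-sided permutation test, p = 0.00794 for each, the smallest that 5 against 5 arrays can give). The knockout arrays spread widely, from 3.47 to 7.12 in mock skin and from 5.47 to 7.41 under imiquimod, against 7.22 to 7.74 and 7.68 to 8.40 in controls. Replicates 2 and 3 of the mock knockouts (6.84 and 7.12) and replicates 2 and 4 of the imiquimod knockouts (7.41 and 7.18) lay nearest to the controls. Where the probes of Zfp36 lie relative to the deleted part was not given in the sources used here. Within groups the mean of 19 hair follicle genes varied widely. The array farthest from its group median was replicate 5 of the mock controls, replicate 5 of the imiquimod controls, replicate 3 of the mock knockouts and replicate 1 of the imiquimod knockouts. The other 4 arrays lay close together in both control groups, whereas in knockouts replicate 2 of the mock arrays (7.80) and replicate 4 of the imiquimod arrays (7.24) lay between the extremes. Results that change without these 4 arrays are given with that value. Epidermal markers, 11 of them measured, averaged 9.60 to 10.43 on every array, and markers of fat and muscle were present as well.

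The first question was whether lipid synthesis genes responded to imiquimod in skin with intact Zfp36. Of the 30 members, 22 rose in controls, 1 fell and 7 did not pass the test (limma, Benjamini-Hochberg adjusted p under 0.05 over 22180 genes). Over all genes 10.8% passed, 6.47% higher and 4.37% lower. The members' median difference was 0.76 on the log2 scale, against -0.004 for all genes. In 21 members the 5 imiquimod arrays all lay above the 5 mock arrays and in 0 members all lay below, which held for 5.6% and 2.74% of all genes. In knockouts 19 members rose, 2 fell and 9 did not pass, against 20.8% of all genes called, 11.1% higher and 9.71% lower, and the median difference was 0.70. There, 18 members were higher without overlap and 1 was lower without overlap, against 7.16% and 6.53% of all genes. Between the genotypes 20 members were called in the same direction in both, 3 in controls alone (Acly, Elovl5 and Elovl6), 1 in knockouts alone (Insig2) and 6 in neither.

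Sterol enzymes made up 16 of the 22 rises in controls and 16 of the 19 in knockouts. All 16 of those measured, from the mevalonate steps to the last reductase, rose in both genotypes. Their differences ran from 0.58 to 1.63 on the log2 scale in controls, with a median of 1.05, and from 0.60 to 1.75 in knockouts, with a median of 1.03. In controls none of the 16 had overlapping groups. In knockouts 15 had none, and Tm7sf2 overlapped. The other 14 members had a median difference of 0.34 in controls and -0.03 in knockouts, with 6 higher and 1 lower in controls and 3 higher and 2 lower in knockouts.

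**Figure D1:**
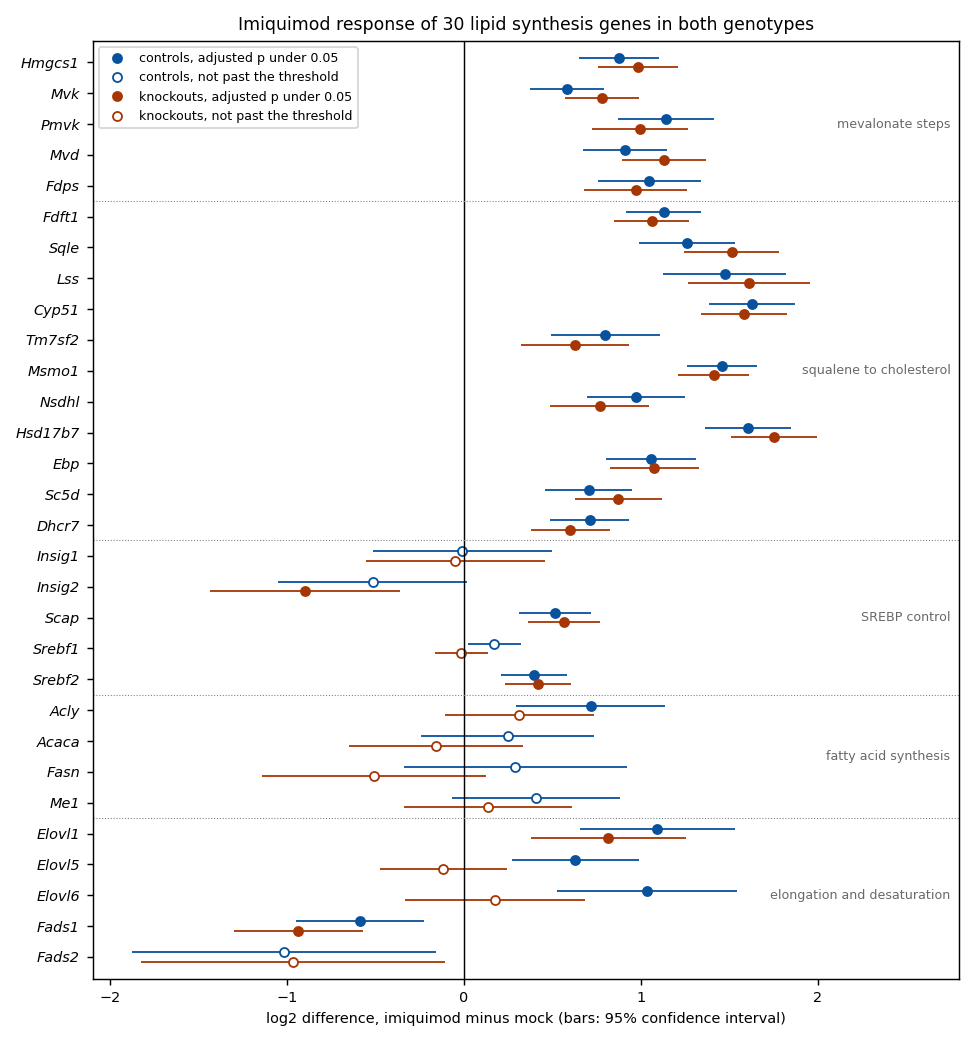
Imiquimod minus mock differences of the 30 measured members on the log2 scale in controls and knockouts, with 95% confidence intervals; filled symbols passed adjusted p under 0.05. The 16 sterol enzymes lie between 0.58 and 1.75 in both genotypes, while Insig2, Fads1 and Fads2 lie below 0.

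Hmgcs1 codes for the synthase that makes HMG-CoA, the substrate of the step that statins block. In control mice it read 10.23, 10.13, 9.99, 10.39 and 10.32 after mock treatment and 11.06, 11.05, 11.16, 11.12 and 11.06 under imiquimod. In knockouts it read 10.42, 9.87, 10.23, 9.74 and 9.90 in mock skin and 10.99, 11.07, 11.06, 10.84 and 11.11 under imiquimod. Every imiquimod array was above every mock array in both genotypes. The difference was 0.88 ± 0.11 (SE, 5 against 5 arrays; 1.84-fold, limma adjusted p = 1.22e-05) in controls and 0.98 (1.98-fold, adjusted p = 1.81e-06) in knockouts.

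The 4 enzymes that follow in the mevalonate steps rose too. Mvk, mevalonate kinase, rose by 0.58 ± 0.10 (SE) in controls, the smallest rise of the 16, and by 0.78 in knockouts. Pmvk, which adds the next phosphate, rose by 1.14 and 0.99 in controls and knockouts, and Mvd, the decarboxylase that makes isopentenyl diphosphate, by 0.91 and 1.13. Fdps, which joins isoprene units into farnesyl diphosphate, rose by 1.05 ± 0.14 (limma adjusted p = 2.79e-05) in controls and 0.97 in knockouts. The largest adjusted p among the 5 mevalonate enzymes was that of Mvk in controls, 5.29e-04.

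Past farnesyl diphosphate the route is committed to sterols. The 11 measured enzymes of these steps had median rises of 1.13 in controls and 1.08 in knockouts, beside 0.91 and 0.98 for the 5 of the mevalonate steps. Fdft1, squalene synthase, rose by 1.13 ± 0.10 in controls and 1.06 in knockouts. Sqle codes for squalene epoxidase, a rate-limiting enzyme of the route. It read 8.28, 8.33, 8.34, 8.55 and 8.40 in mock controls and 9.69, 9.71, 9.83, 9.53 and 9.44 in imiquimod controls. Knockouts read 8.66, 7.86, 8.30, 7.80 and 8.24 after mock treatment and 9.54, 9.87, 9.61, 9.59 and 9.81 under imiquimod. The groups did not overlap in either genotype, although the mock knockouts spread more widely than the mock controls. Sqle rose by 1.26 ± 0.13 (2.40-fold, limma adjusted p = 1.14e-06) in controls and by 1.51 (2.85-fold, 6.93e-08) in knockouts.

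Lss codes for lanosterol synthase, which closes the rings. Its arrays read 6.59, 6.74, 6.42, 6.87 and 6.12 in mock controls and 8.12, 8.24, 8.20, 7.78 and 7.77 in imiquimod controls, without overlap. In knockouts they read 6.87, 5.99, 6.62, 6.05 and 6.56 against 7.72, 8.14, 8.0, 8.12 and 8.16, again without overlap. The difference was 1.47 ± 0.17 (2.78-fold, limma adjusted p = 3.82e-06) in controls and 1.61 (3.05-fold, 8.25e-07) in knockouts.

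Cyp51, the lanosterol demethylase, had the largest rise of any member in controls. It read 8.35, 8.36, 8.11, 8.45 and 8.21 in mock controls and 9.92, 9.83, 10.05, 10.16 and 9.65 under imiquimod. Knockouts read 8.58, 7.98, 8.34, 8.05 and 8.08 in mock skin and 9.64, 9.96, 9.83, 9.63 and 9.88 under imiquimod. All 10 imiquimod arrays lay above all 10 mock arrays. The rise was 1.63 ± 0.12 (3.09-fold, limma adjusted p = 8.98e-09) in controls and 1.58 (2.99-fold, 8.71e-09) in knockouts.

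Hsd17b7, which reduces a ketone left by demethylation, had the largest rise of any member in knockouts. Its mock values were 7.17, 7.25, 7.05, 7.32 and 7.10 in controls and 7.38, 6.81, 7.29, 7.04 and 7.24 in knockouts. Its imiquimod values were 8.82, 8.90, 9.0, 8.68 and 8.52 in controls and 8.59, 8.97, 8.82, 9.02 and 9.11 in knockouts. The lowest imiquimod array was more than 1 log2 unit above the highest mock array. The rise was 1.61 ± 0.12 (3.04-fold, limma adjusted p = 1.03e-08) in controls and 1.75 (3.36-fold, 2.16e-09) in knockouts.

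Msmo1, the monooxygenase that removes methyl groups, rose by 1.46 ± 0.10 and 1.41 in controls and knockouts (limma adjusted p = 2.2e-09 and 2.3e-09). Nsdhl, the dehydrogenase of the same demethylation, rose by 0.97 and 0.77. Ebp, which shifts a double bond, rose by 1.06 in controls and 1.08 in knockouts. Sc5d, a sterol desaturase, rose by 0.70 and 0.87, and Dhcr7, which makes cholesterol from its immediate precursor, by 0.71 and 0.60. Tm7sf2, a sterol reductase, had the weakest support of the 16. It read 6.15, 5.88, 6.32, 5.64 and 5.72 in mock knockouts and 6.22, 6.52, 6.76, 6.34 and 7.0 in imiquimod knockouts, so that the lowest imiquimod array lay below the highest mock array. Its difference was 0.63 ± 0.15 (limma adjusted p = 0.00426) in knockouts and 0.80 (9.91e-04) in controls, where the groups did not overlap.

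**Figure D2:**
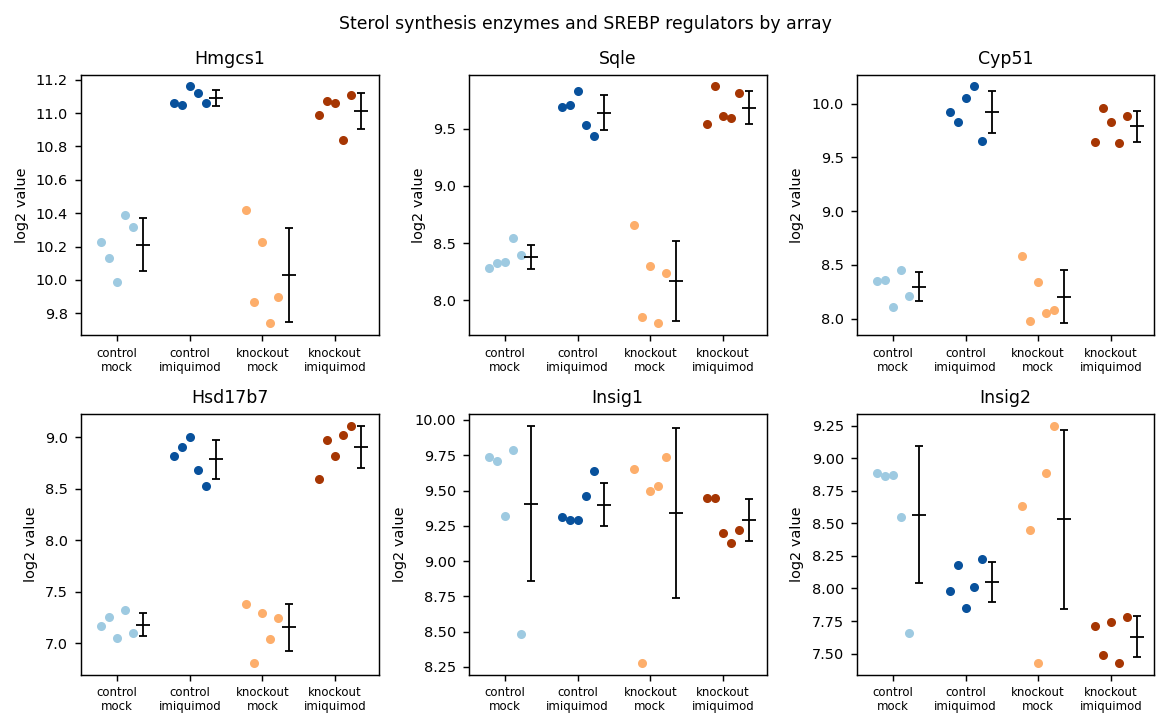
Log2 values of 4 sterol enzymes and 2 SREBP regulators on the 20 arrays; dots are arrays, and bars the mean ± SD of 5. Hmgcs1, Sqle, Cyp51 and Hsd17b7 separate imiquimod from mock skin in both genotypes, Insig1 does not, and Insig2 is lower under imiquimod in knockouts.

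Of the 5 measured genes of SREBP control, Srebf2 and Scap rose in both genotypes, Insig2 fell in knockouts, and Insig1 and Srebf1 passed in neither without a marker covariate. Srebf2, which codes for SREBP-2, rose by 0.40 ± 0.09 (1.32-fold, limma adjusted p = 0.0057) in controls and by 0.42 (0.00198) in knockouts, less than any sterol enzyme. Its values were 7.71, 7.74, 7.83, 8.0 and 7.64 in mock controls against 8.12, 8.21, 8.25, 8.18 and 8.14 under imiquimod, without overlap. Scap rose by 0.51 ± 0.10 (adjusted p = 0.00131) in controls and by 0.57 (2.84e-04) in knockouts. Scap is the 1 member with a second probe set, which averaged 5.02 against 7.79 for the brighter one. With the mean of both, its difference in controls was 0.19 (adjusted p = 0.13), and the call was lost. Srebf1, which codes for SREBP-1, differed by 0.17 ± 0.07 (adjusted p = 0.144) in controls and -0.02 (0.921) in knockouts and had the smallest within-group spread of the 14 members outside the sterol enzymes (SD 0.09).

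Insig1, itself an SREBP target and the brake on its transport, did not pass the test in either genotype. In controls it read 9.74, 9.71, 9.32, 9.79 and 8.48 in mock skin and 9.31, 9.29, 9.29, 9.46 and 9.64 under imiquimod. In knockouts it read 9.65, 8.28, 9.5, 9.53 and 9.74 in mock skin and 9.45, 9.45, 9.20, 9.13 and 9.22 under imiquimod. The groups overlapped in both, and in each mock group 1 array lay well below the rest, replicate 5 in controls and replicate 2 in knockouts. The difference was -0.01 ± 0.24 (95% interval -0.52 to 0.50, limma adjusted p = 0.989) in controls and -0.05 (-0.56 to 0.46, 0.928) in knockouts. Both intervals end below the smallest estimate of the 16 sterol enzymes in that genotype. The intervals of those enzymes reach down to 0.37 in controls and 0.32 in knockouts, however, and overlap those of Insig1. Whether Insig1 responded less than each of them was not tested. With the epidermal marker mean as a covariate, however, the difference in controls was 0.85 (limma adjusted p = 0.0303).

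Insig2, the other INSIG gene, was lower under imiquimod. The knockouts read 8.63, 8.45, 7.43, 8.89 and 9.25 in mock skin and 7.71, 7.49, 7.74, 7.43 and 7.78 under imiquimod. Replicate 3 of the mock knockouts read as low as the lowest imiquimod array, and the other 4 mock arrays lay above all 5. Insig2 fell by 0.90 ± 0.26 (1.87-fold lower, limma adjusted p = 0.0156) in knockouts, and the difference in controls was -0.52 (0.23). In controls the mock values were 8.89, 8.86, 8.87, 8.55 and 7.66 and the imiquimod values 7.98, 8.18, 7.85, 8.01 and 8.23, so that replicate 5 alone of the mock arrays overlapped. Without replicate 5 of the mock knockouts the knockout call was lost (-0.72, limma adjusted p = 0.0506). Without replicate 5 of the mock controls the difference in controls passed (-0.74, 0.0387), as it did without the 4 arrays farthest out in hair genes (-0.79, 0.000895).

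Of the 4 measured members that supply malonyl-CoA, NADPH and palmitate, Acly rose in controls and none passed in knockouts. Other enzymes of this supply are given with the pathway genes below. Acly codes for ATP-citrate lyase, which makes cytosolic acetyl-CoA for both routes. It read 8.80, 8.85, 9.48, 9.14 and 9.49 in mock controls and 9.93, 9.86, 10.01, 9.83 and 9.71 under imiquimod, without overlap. Its knockout values were 9.25, 9.20, 10.35, 9.70 and 9.09 in mock skin and 9.67, 9.98, 10.19, 9.43 and 9.88 under imiquimod, with overlap. The difference was 0.72 ± 0.20 (limma adjusted p = 0.0252) in controls and 0.31 (0.326) in knockouts. The call in controls was lost without replicate 1 or 2 of the mock controls or without replicate 1, 2 or 3 of the imiquimod controls (0.63 to 0.72, limma adjusted p = 0.0506 to 0.0729). Without replicate 3 of the mock knockouts Acly passed in knockouts as well (0.52, 0.0317), as it did without the 4 arrays farthest out in hair genes (0.56, 0.0243).

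Fasn codes for fatty acid synthase, which makes palmitate. It read 8.58, 8.46, 9.96, 9.04 and 9.46 in mock controls and 9.18, 9.23, 9.44, 9.65 and 9.45 under imiquimod. Its knockout values were 9.53, 9.35, 10.80, 10.27 and 9.33 in mock skin and 9.23, 9.56, 10.02, 8.60 and 9.32 under imiquimod. The groups overlapped in both genotypes. The difference was 0.29 ± 0.30 (95% interval -0.34 to 0.92, limma adjusted p = 0.65) in controls and -0.51 (0.276) in knockouts. Acaca, acetyl-CoA carboxylase, differed by 0.25 and -0.16, and Me1, malic enzyme, by 0.41 and 0.14, and none of these passed.

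Adipocyte markers varied between arrays as well. Replicate 3 of the mock knockouts had the highest mean of the 12 measured adipocyte markers, 9.58, and also the highest reading of any array for Acly (10.35), Acaca (9.77), Fasn (10.80) and Me1 (11.04). Replicate 4 of the imiquimod knockouts had the lowest adipocyte mean, 6.97, and within its group the lowest Acly (9.43), Acaca (8.08), Fasn (8.60) and Me1 (9.62), although arrays of other groups read lower for each of the 4 genes. The group ranges of that mean were 7.71 to 8.78 and 7.69 to 8.33 in mock and imiquimod controls and 7.84 to 9.58 and 6.97 to 7.91 in mock and imiquimod knockouts. Of the 12 markers 0 rose and 1 fell in controls, and 0 rose and 8 fell in knockouts. Over all genes 6.47% rose and 4.37% fell in controls, and 11.1% and 9.71% in knockouts. With the adipocyte mean as a covariate, Me1 passed the test in both genotypes (0.61 in controls, 0.76 in knockouts), and in knockouts so did Acly (0.94, limma adjusted p = 1.71e-05) and Elovl6 (0.84, 0.00537). Fads2 passed in both as well (-1.26, 0.0235 in controls and -1.71, 0.0118 in knockouts), and in controls Srebf1 (0.21, 0.0333) and Insig2 (-0.69, 0.0367) did. The part of fat in these values was not tested further.

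**Figure D3:**
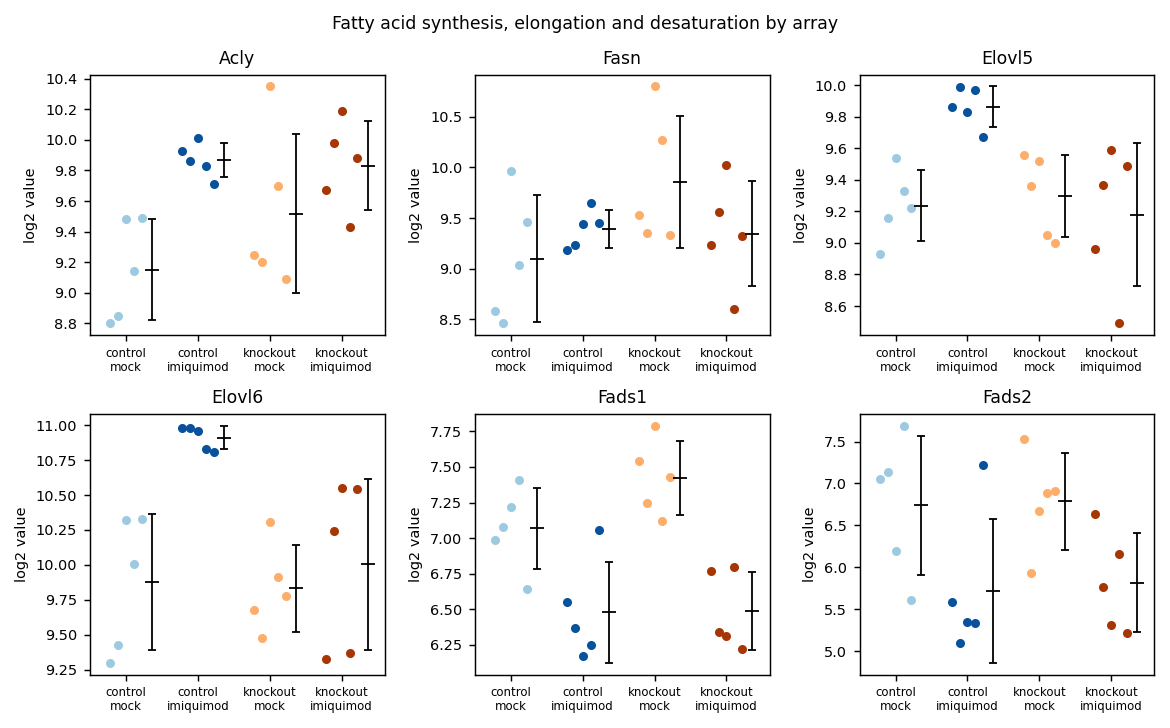
Log2 values of fatty acid synthesis, elongation and desaturation genes on the 20 arrays; dots are arrays, and bars the mean ± SD of 5. Elovl5 and Elovl6 are higher under imiquimod in controls, where their groups do not overlap, and overlap between treatments in knockouts.

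The elongases and desaturases split. Elovl1, which makes the very long chains of barrier ceramides, rose by 1.09 ± 0.21 (2.13-fold, limma adjusted p = 0.0015) in controls and by 0.82 (0.00811) in knockouts. Its control values were 8.29, 8.21, 8.90, 8.59 and 9.65 in mock skin and 9.79, 10.07, 10.08, 9.60 and 9.56 under imiquimod. Replicate 5 of the mock controls reached into the imiquimod range, and the other 4 mock arrays lay below it.

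Elovl6, which extends palmitate to stearate, read 9.30, 9.43, 10.32, 10.01 and 10.33 in mock controls and 10.98, 10.98, 10.96, 10.83 and 10.81 under imiquimod. In knockouts it read 9.68, 9.48, 10.31, 9.91 and 9.78 in mock skin and 9.33, 10.24, 10.55, 9.37 and 10.54 under imiquimod. Controls did not overlap, and the imiquimod knockouts divided into 3 arrays at 10.24 or above and 2 at 9.37 or below. Elovl6 rose by 1.03 ± 0.24 (2.05-fold, limma adjusted p = 0.00792) in controls, and the difference in knockouts was 0.17 (0.708).

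Elovl5, which extends polyunsaturated chains, read 8.93, 9.16, 9.54, 9.33 and 9.22 in mock controls and 9.86, 9.99, 9.83, 9.97 and 9.67 under imiquimod, again without overlap. In knockouts it read 9.56, 9.36, 9.52, 9.05 and 9.0 in mock skin and 8.96, 9.37, 9.59, 8.49 and 9.49 under imiquimod, with overlap. The difference was 0.63 ± 0.17 (1.55-fold, limma adjusted p = 0.0216) in controls and -0.12 (0.721) in knockouts. The call in controls was lost without replicate 1 of the mock controls or without replicate 2 or 4 of the imiquimod controls (0.55 to 0.60, limma adjusted p = 0.0524 to 0.0649).

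Fads1, a desaturase of polyunsaturated fatty acids, was the 1 member that fell in both genotypes. It read 6.99, 7.08, 7.22, 7.41 and 6.64 in mock controls and 6.55, 6.37, 6.17, 6.25 and 7.06 under imiquimod. The knockouts read 7.54, 7.25, 7.79, 7.12 and 7.43 in mock skin and 6.77, 6.34, 6.31, 6.80 and 6.22 under imiquimod. Knockouts did not overlap, and in controls replicate 5 of the imiquimod arrays reached into the mock range while the other 4 lay below it. The difference was -0.59 ± 0.17 (limma adjusted p = 0.034) in controls and -0.94 (6.11e-04) in knockouts. The call in controls was lost without any 1 of replicates 1 to 4 of the mock controls or of the imiquimod controls (-0.61 to -0.50, limma adjusted p = 0.053 to 0.103).

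Fads2, the desaturase that acts before Fads1, did not pass in either genotype at -1.02 ± 0.41 (limma adjusted p = 0.126) and -0.97 (0.108), and had the widest within-group spread of the members (SD 0.72). Its imiquimod controls read 5.58, 5.10, 5.35 and 5.34 in replicates 1 to 4 and 7.22 in replicate 5, the array whose hair follicle mean was 9.21 against 5.31 to 5.89 in the rest. Without that array Fads2 passed in controls (-1.40, limma adjusted p = 0.0148), and it did so without replicate 5 of the mock controls (-1.30, 0.0378). Without the 4 arrays farthest out in hair genes it passed in both genotypes (-1.68, 0.000894 in controls and -1.20, 0.00984 in knockouts). Whether hair growth on that array had a part in its Fads1 and Fads2 readings was not tested.

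**Figure D4:**
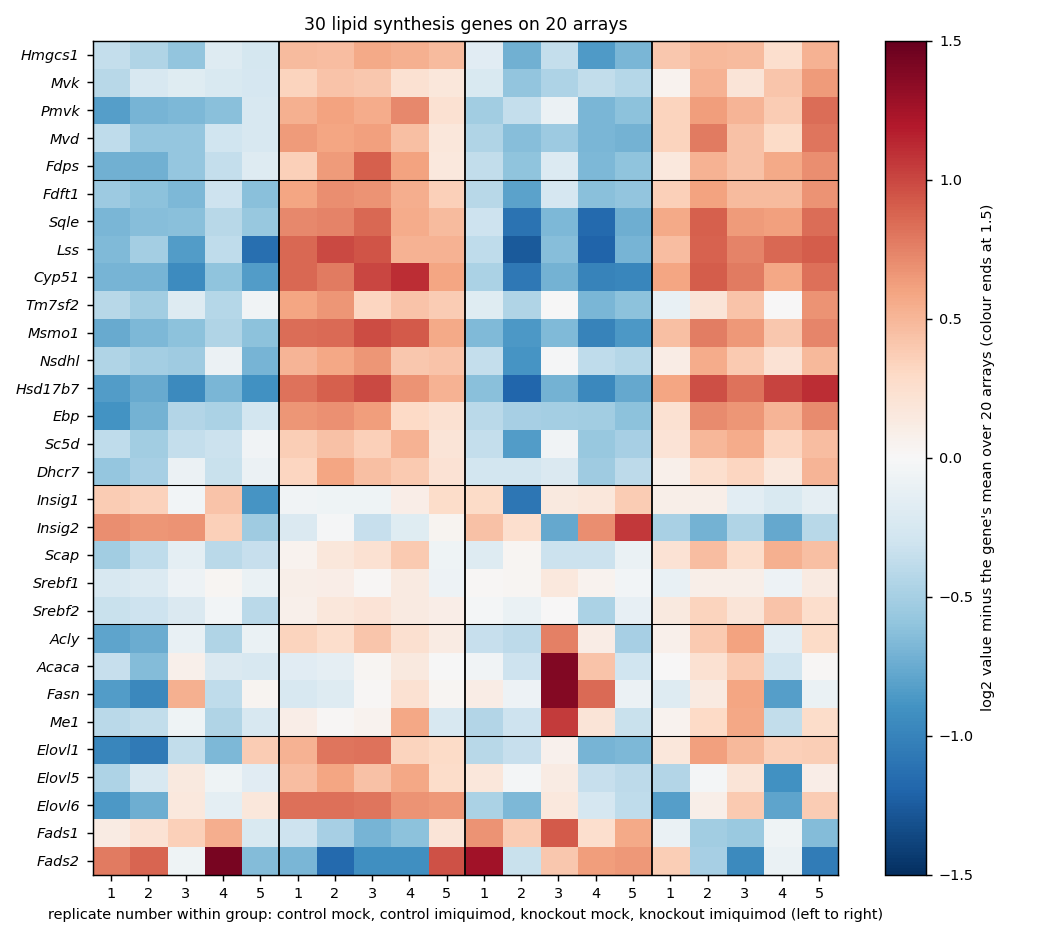
Log2 value of each of the 30 measured members on each of the 20 arrays, minus the gene's mean over all 20. The sterol enzymes change together between mock and imiquimod columns, whereas Fasn, Acaca and Me1 are highest on replicate 3 of the mock knockouts.

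The second question was whether the loss of Zfp36 in keratinocytes altered these genes. In mock skin 0 of 30 members differed between knockouts and controls (limma; 3 at an unadjusted p under 0.05), against 0.00902% of all genes, that is 2 genes called of 22180. For 0 members did the 5 arrays of one genotype all lie above or all below those of the other in mock skin, which held for 0.189% and 0.221% of all genes. The 3 were Srebf1 (0.16), Acaca (0.51) and Fasn (0.76), all higher in knockouts, and their adjusted p was 0.999. In imiquimod skin 0 of 30 members passed (4 at an unadjusted p under 0.05, namely Msmo1, Scap, Elovl5 and Elovl6), against 0.546% of all genes, 0.374% higher and 0.171% lower in knockouts. The median difference between genotypes was 0.02 in mock skin and -0.03 under imiquimod. The difference between the imiquimod responses of the genotypes also passed for 0 of 30 members (limma; 2 at an unadjusted p under 0.05, Elovl5 and Elovl6), against 0.018% of all genes. Of all 22180 genes, 708 had an unadjusted p under 0.05 in mock skin, 2218 under imiquimod and 1497 for the difference between the responses.

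For the 16 sterol enzymes the genotype differences ran from -0.21 to 0.16 in mock skin and from -0.24 to 0.12 under imiquimod. The 95% intervals, taken over all 16, reached from -0.48 to 0.43 and from -0.55 to 0.36. The intervals of the differences between the responses reached from -0.61 to 0.63, and 8 of the 16 responses were larger in knockouts. Msmo1 came nearest to a genotype difference under imiquimod at -0.23 (limma adjusted p = 0.383). A difference as large as the median imiquimod rise of these enzymes lay outside all of these intervals.

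Under imiquimod Elovl5 and Elovl6 had the largest genotype differences of the members. Elovl5 differed by -0.68 ± 0.17 (95% interval -1.04 to -0.33, limma adjusted p = 0.0862) and Elovl6 by -0.91 ± 0.24 (-1.42 to -0.40, adjusted p = 0.12). All 5 knockout arrays lay below all 5 control arrays for both genes and for Insig2, where the difference was -0.42 (adjusted p = 0.641). Such an absence of overlap held for 3 members in the lower and 0 in the higher direction, and for 1.17% and 1.3% of all genes. The responses differed by -0.75 ± 0.24 for Elovl5 (adjusted p = 0.581) and by -0.86 ± 0.35 for Elovl6 (0.692), so that the calls in controls alone are not shown to differ between the genotypes. The sebaceous marker mean was 7.72 to 8.12 on the imiquimod control arrays and 7.0 to 7.83 on the imiquimod knockout arrays, and with it as a covariate the differences under imiquimod were -0.17 for Elovl5 and -0.32 for Elovl6 (limma adjusted p = 0.921 and 0.957). With the hair follicle mean as a covariate both genes passed (-0.66, adjusted p = 0.0289, and -0.86, 0.0215), as they did with the epidermal mean (-0.615, 0.0448, and -0.78, 0.0362), and without replicate 3 of the imiquimod knockouts Elovl5 passed (-0.79, 0.0413).

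Genes of the same pathways outside the 33 gave a mixed picture. Of 51 measured, 16 rose and 3 fell in controls and 13 rose and 10 fell in knockouts, with median differences of 0.14 and -0.05. The shares of all genes beside these counts, and beside those of the lists that follow, were 6.47% higher and 4.37% lower in controls. In knockouts they were 11.1% and 9.71%. Among 23 further synthesis enzymes, 10 rose and 1 fell in controls and 6 rose and 3 fell in knockouts. Elovl4 and Elovl7, elongases of very long and long chains, rose by 1.29 and 1.61 in controls and by 1.19 and 1.41 in knockouts. Hsd17b12, the reductase of the elongation cycle, rose by 1.16 and 0.77, and the dehydratases Hacd2 and Hacd3 by 0.99 and 0.71 in controls and 0.59 each in knockouts. Fads3, by contrast, differed by -1.81 and -1.73 and passed in both. In controls Acacb read 5.31 to 6.54 in mock skin and 6.65 to 7.19 under imiquimod, and Pgd 8.19 to 8.46 and 8.62 to 9.10. Acss2 read 6.51 to 7.25 and 7.41 to 7.93, and Slc25a1 7.62 to 8.47 and 8.63 to 9.07. Each of these genes overlapped between treatments in knockouts, and Me2 and Mcat overlapped in both genotypes. For Pgd the overlap came from replicate 3 of the mock knockouts alone. Its knockout values were 8.26, 8.22, 9.16, 8.37 and 8.38 in mock skin and 9.03, 9.43, 9.33, 9.24 and 9.28 under imiquimod.

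Among 16 genes of SREBP control and sterol traffic, 3 rose and 2 fell in controls and 3 rose and 4 fell in knockouts. Stard4, a carrier of cholesterol and an SREBP target, rose by 1.17 and 0.98, and Aacs, which feeds acetoacetate into synthesis, by 0.97 and 0.72. Erlin1, part of the complex that holds SREBP and SCAP in the endoplasmic reticulum, rose by 0.63 and 0.69. Npc1, which exports cholesterol from lysosomes, fell by 0.60 and 0.62, and Mbtps1, the protease that makes the first cut in SREBP, by 0.32 and 0.44.

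Among 12 LXR targets and efflux genes, which remove cholesterol and oxysterols, 3 rose and 0 fell in controls and 4 rose and 3 fell in knockouts. Abca1, the exporter to apolipoprotein A-I, fell by 0.65 in knockouts, as did Apoe by 0.77. Neither was called in controls, where Abca1 read 8.74 to 9.60 in mock skin and 8.53 to 8.99 under imiquimod. Apoe read 7.40 to 7.93 and 7.12 to 7.34 there, lower without overlap. Abcg4 rose by 0.66 in controls and by 1.22 in knockouts. The difference between the responses passed for 0 of the 12 genes. Cyp7b1 codes for an oxysterol hydroxylase. It read 5.70, 5.68, 6.15, 5.71 and 5.32 in imiquimod controls and 7.02, 7.38, 6.44, 7.99 and 6.80 in imiquimod knockouts, without overlap. It was the 1 of the 51 genes called between the genotypes under imiquimod, 1.41 ± 0.21 higher in knockouts (2.67-fold, limma adjusted p = 0.00267). Over all genes 0.546% were called there. In mock skin 0 of 51 were called (limma; 2 at an unadjusted p under 0.05, against 708 of all 22180 genes). The response of Cyp7b1 was 1.25 in controls and 2.45 in knockouts, and the difference of 1.20 between them did not pass (adjusted p = 0.333).

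Markers of skin compartments moved with treatment beside the sterol enzymes. The mean of the 14 measured sebaceous gland markers ran from 6.73 to 7.38 in mock controls, 7.72 to 8.12 in imiquimod controls, 6.89 to 7.36 in mock knockouts and 7.0 to 7.83 in imiquimod knockouts. Of the 14, 6 rose and 1 fell in controls and 5 rose and 2 fell in knockouts. The mean of the 11 epidermal markers ran from 9.60 to 10.24 and from 10.24 to 10.43 in mock and imiquimod controls and from 9.84 to 10.18 and from 10.14 to 10.42 in the knockouts, with 6 higher and 1 lower in controls and 5 higher and 1 lower in knockouts. The mean of the 16 sterol enzymes ran from 7.54 to 7.76 and from 8.50 to 8.83 in controls and from 7.39 to 7.76 and from 8.45 to 8.86 in knockouts. The sebaceous mean separated mock from imiquimod controls without overlap. In knockouts replicates 1 (7.35) and 4 (7.0) of the imiquimod arrays lay within the mock range. The other imiquimod knockout arrays lay above that range, at 7.74 to 7.83. The mean of the sterol enzymes separated mock from imiquimod arrays in both genotypes. Whether gland content had a part in the rise of the sterol enzymes was not tested by this overlap.

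With the sebaceous mean as a covariate, the sterol enzymes kept estimates above 0 in both genotypes, from 0.21 to 1.46 in controls and from 0.36 to 1.69 in knockouts, and 6 of 16 passed in controls (Fdft1, Sqle, Lss, Cyp51, Msmo1 and Hsd17b7) and 15 of 16 in knockouts. With the epidermal mean they ran from 0.33 to 1.74 and from 0.36 to 1.79, and 13 and 15 of 16 passed. With the hair follicle mean all 16 passed in both genotypes, and so they did without the 4 arrays farthest out in hair genes. The 7 other members called in controls (Scap, Srebf2, Acly, Elovl1, Elovl5, Elovl6 and Fads1) lost their calls with the sebaceous mean and with the epidermal mean. In knockouts both covariates ended the calls of Insig2 and Elovl1, and both turned the Fasn difference into a call, lower under imiquimod (-1.05, limma adjusted p = 0.0139 with the sebaceous mean and -1.07, 0.00986 with the epidermal mean). Elovl5 was also called lower in knockouts with the sebaceous mean (-0.57, 0.000104). With the hair follicle mean Acly, Elovl5, Elovl6 and Fads1 lost theirs in controls and Insig2 in knockouts. A covariate that itself moves with treatment takes up part of the treatment difference (with the sebaceous mean 190 genes in all were called in controls, against 2404 without it), and the part of gland or epidermal mass in the result was not tested beyond these values. Without a covariate, 6.47% of all genes rose and 4.37% fell in controls, and 11.1% and 9.71% in knockouts. Of the 9 measured neutrophil markers 3 rose in controls and 5 in knockouts, and of the 10 monocyte and macrophage markers 3 and 2. Of the 7 fibroblast markers 4 fell in controls and 3 in knockouts, and of the 12 muscle markers 0 fell and 1 rose in controls, while 7 fell and 1 rose in knockouts. Of the 19 hair follicle markers 0 passed in either genotype (limma; 18 at an unadjusted p under 0.05 in controls and 7 in knockouts), with median differences of -2.94 and -2.03. Of all 22180 genes, 5300 had an unadjusted p under 0.05 in controls and 6925 in knockouts.

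**Figure D5:**
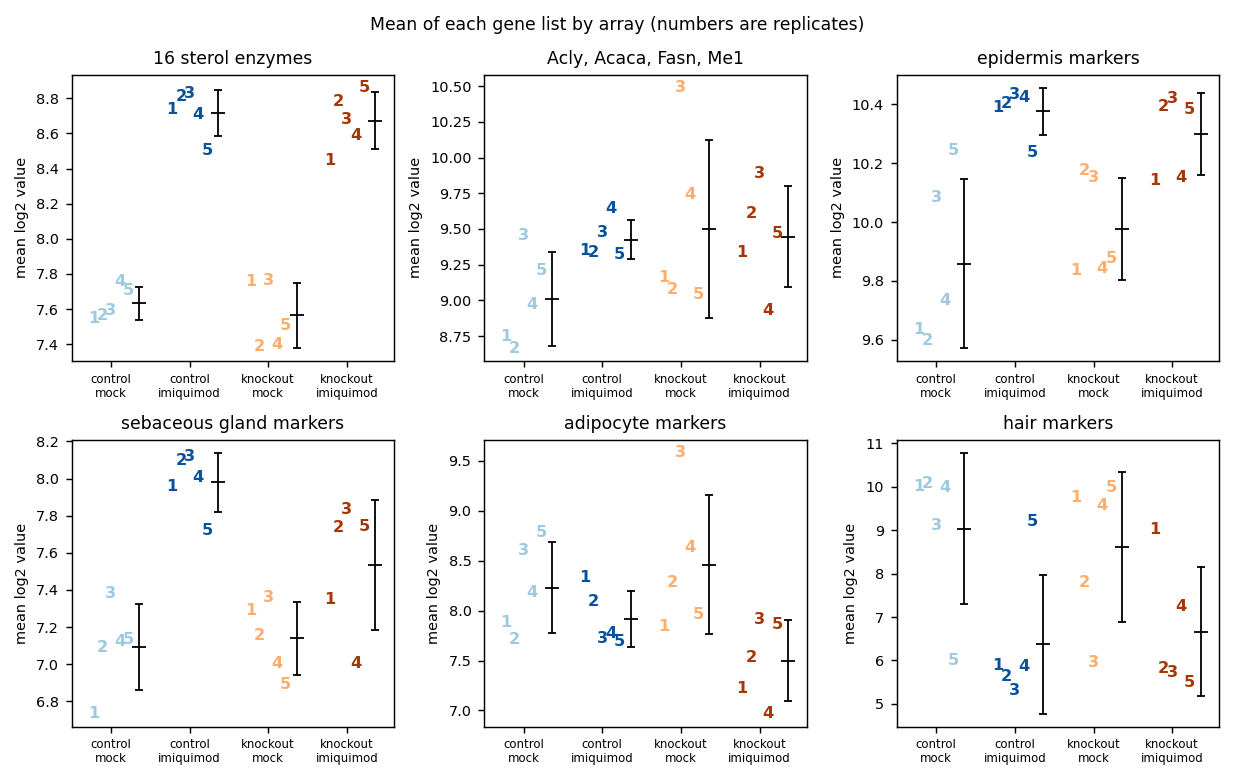
Mean log2 value of gene lists on each of the 20 arrays, with replicate numbers as points. The mean of the 16 sterol enzymes is 8.45 to 8.86 on imiquimod arrays and 7.39 to 7.76 on mock arrays, while the hair follicle mean has 1 array apart in each control group and a wide spread in both knockout groups.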

How the data were processed

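Total RNA of whole abdominal skin was labelled with the Affymetrix WT PLUS protocol, 1 array per mouse, per the labels' protocols. What the authors made of the scans is a single table, 41345 probe sets by 20 arrays, whose values ran from 1.41 to 13.33 and were taken as log2 from that range of the deposited numbers, since scale, summarisation and normalization were not given in the sources used here. Every value and difference therefore rests on that reading, and array values compress large differences.

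Gene symbols came from GEO's platform annotation. Of the probe sets 23521 had 1 symbol, 1814 several and 16010 no entry, and 0 symbols changed when updated through RefSeq. The brightest probe set stood for each of 22180 genes, 1082 of which had several. No detection filter was applied, and the number of arrays limits the precision. A mean per group was fitted to all 20 arrays with limma 3.58.1 (R 4.3.3), with 16 residual degrees of freedom plus 3.99 from the prior. Benjamini-Hochberg adjustment ran over all genes in each of 5 contrasts, and an adjusted p under 0.05 was a call. SE and intervals are those of the fit, and SE is the same in both genotypes. Zfp36 was also compared with an exact permutation test. The scripts were tested on simulated data.

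The members, gene lists and tests were chosen with earlier results of these data known. Genes named were all measured members and a part of the other pathway genes. A pathway gene that is not named may also have been called. Labels give 5 animals a group. Alternatives were other variance models, scalings, probe set rules, a filter on dim genes, array weights, marker means as covariates, a replicate block and leaving out each array. The epidermal covariate and the omission of 4 arrays were added after seeing the data.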

Additional observations from a re-analysis of the deposited data

Results flagged for a closer look

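In each group of 5 arrays the highest and lowest readings of the members, of the pathway genes called in at least 1 comparison, of Zfp36 and of the gene list means were compared with the others. In 16 of 252 groups 1 array stood apart by a gap above Dixon's critical value of 0.71 of the group's range, and chance gives about 1 in 20.

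Among the members, Insig1 read 8.28 on replicate 2 of the mock knockouts, against 9.5 to 9.74 on the other 4 arrays. Insig2 read 7.66 on replicate 5 of the mock controls, against 8.55 to 8.89. Srebf2 read 7.57 on replicate 4 of the mock knockouts, against 7.92 to 8.05, and Fads2 read 7.22 on replicate 5 of the imiquimod controls, against 5.10 to 5.58.

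Replicate 5 of the mock controls and replicate 5 of the imiquimod controls recur among the pathway genes. On the first of these arrays Fads3 read 7.14, against 9.21 to 9.63, and Hacd3 7.61, against 8.08 to 8.22. On the latter Fads3 read 8.46, against 6.68 to 6.98, Elovl7 9.26, against 9.76 to 9.82, and Aacs 7.71, against 8.08 to 8.20. The hair follicle mean was 6.0 on the mock control array, against 9.11 to 10.07, and 9.21 on the imiquimod control array, against 5.31 to 5.89, where the epidermal mean was 10.24, against 10.39 to 10.43. What set these arrays apart was not tested.

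Replicate 3 of the mock knockouts was high in Acss2, which makes acetyl-CoA from acetate, at 8.57 against 6.83 to 7.31, and in Pgd, which makes NADPH, at 9.16 against 8.22 to 8.38. Stard4 read 6.42 on replicate 5 of the mock knockouts, against 6.69 to 6.79, and Abca1 read 9.60 on replicate 3 of the mock controls, against 8.74 to 8.96.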

How the results depend on the processing

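All 16 sterol enzymes passed in controls under 32 of 34 alternatives and in knockouts under 32 of 34, the exceptions being the sebaceous and the epidermal covariate. With the sebaceous covariate 6 members were called in controls and the differences of Acly, Elovl5 and Elovl6 turned to -0.12, -0.385 and -0.13. With the epidermal covariate 14 were called there, and Insig1 turned to 0.85 (limma adjusted p = 0.0303). Between genotypes under imiquimod 2 members were called with the hair covariate and 2 with the epidermal one. Leaving out 1 array at a time gave 20 to 25 members in controls, 20 to 22 in knockouts, 0 to 0 between genotypes in mock skin, 0 to 1 under imiquimod and 0 to 0 for the difference of responses. Zfp36 differed by -2.45 to -1.54 in mock skin (exact permutation p = 0.0556 without replicate 3 of the mock controls, at -1.96) and by -1.85 to -1.37 under imiquimod. The causes were not tested. Over the alternatives that kept every array or left out 4 together, 2006 of 2070 member values kept their side of the threshold without a called difference changing direction. A change of direction in a member called in neither fit was not counted.

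Same-numbered arrays did not all deviate together (correlations from -0.71 to 0.52). The median over pairs of groups was 0.14, against -0.05 for arrays of other numbers. These correlations cannot settle whether the numbers pair the mice. With the replicate number as a block 22 members were called in controls, 21 in knockouts and 0 in each genotype comparison, and Fads1 lost its call in controls (adjusted p = 0.065), as it did with only the contrast's groups fitted (0.0628). Over all genes, calls in controls moved from 2404 to 3697 with array weights. Those between genotypes under imiquimod moved from 121 to 17 with only those groups fitted, 242 with array weights, 337 with the hair covariate, 67 with the adipocyte one and 18 with the sebaceous one.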
